A study of Homo sapiens with 18 samples.

Results

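The 10 genes described here are members of the BCL2 family, which sets the threshold at which a cell commits to apoptosis. They were taken by symbol from a table of raw read counts with 28266 gene rows, and all 10 passed the filter that left 14341 genes for testing. There were 5 survival genes (BCL2, BCL2L1, BCL2L2, MCL1 and BCL2A1), 2 effectors (BAX and BAK1) and 3 BH3-only genes (BID, BCL2L11 and BMF). Their counts were compared across 18 libraries of IMR90 ER:RAS cells, in 6 groups of 3. IMR90 cells are human lung fibroblasts, which the study lists among its cell lines. All groups, the controls included, carried a retroviral ER:RAS transgene, in which an oncogenic RAS is fused to part of the oestrogen receptor and which 4-hydroxytamoxifen (4OHT) switches on to induce senescence. Senescent cells were given 4OHT at 100 nM and control cells DMSO, for 7 days. Cells of both states then received DMSO, IMP1088 at 300 nM or DDD86481 at 1.5 µM for 3 days and were collected on day 10. IMP1088 and DDD86481 inhibit the N-myristoyltransferases (NMTi), which attach the lipid myristate to the N-terminal glycine of proteins. Whether replicates came from separate cultures is not stated in the labels. The study's legend for an expression heatmap of these treatments gives n = 3 and describes n as independent experiments. The p-values measure only the spread between these libraries.

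In the mitochondrial pathway of apoptosis, BAX and BAK1 form pores in the outer mitochondrial membrane and let cytochrome c out to activate caspases. Survival proteins hold BAX and BAK1 in check, and BH3-only proteins, made or modified under stress, engage the survival proteins or the effectors through a short BH3 helix. Senescent cells are known for resisting apoptosis through survival proteins of this family, and inhibitors of these proteins are used as senolytic drugs. BID has a further tie to myristoylation, because its caspase-cleaved form gains an N-terminal glycine to which myristate is added. The present values are mRNA levels, and protein levels, cleavage and binding were not measured here.

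Of the 6 members called with each inhibitor in control cells, the promoters of 3 are shown first. These are BAX, which NMTi moved downwards, and BCL2L11 and BCL2A1, which moved upwards. Each is the 250 bases before the start site in RefSeq on GRCh38.p14, read 5′ to 3′ on the gene's strand, with capitals marking matches on either strand to a motif. The motifs were chosen with these sequences in view, and all 3 windows shown hold a match. Of the other called members, BCL2 held no match, BID is described below and BCL2L2 had no promoter in the table. Some calls of BAX and BCL2A1 depended on the fit, as given below.

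BAX: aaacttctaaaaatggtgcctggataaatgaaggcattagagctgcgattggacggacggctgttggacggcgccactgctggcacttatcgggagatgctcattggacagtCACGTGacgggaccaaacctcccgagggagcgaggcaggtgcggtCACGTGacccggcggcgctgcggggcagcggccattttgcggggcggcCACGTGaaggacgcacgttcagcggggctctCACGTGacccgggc
BCL2L11: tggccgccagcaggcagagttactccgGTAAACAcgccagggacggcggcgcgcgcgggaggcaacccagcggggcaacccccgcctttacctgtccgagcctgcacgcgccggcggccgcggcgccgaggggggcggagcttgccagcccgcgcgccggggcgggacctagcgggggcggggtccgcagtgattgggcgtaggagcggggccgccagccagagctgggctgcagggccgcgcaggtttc
BCL2A1: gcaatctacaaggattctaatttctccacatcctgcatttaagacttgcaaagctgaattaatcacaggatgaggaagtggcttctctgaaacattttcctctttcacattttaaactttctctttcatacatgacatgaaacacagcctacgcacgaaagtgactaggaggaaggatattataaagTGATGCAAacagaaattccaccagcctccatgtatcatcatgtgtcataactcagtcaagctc

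The BAX window (chr19:48954625-48954874, plus strand) holds 4 copies of CACGTG, the E-box of MYC and its relatives, whose first bases lie at -138, -93, -45 and -14 from the start site. Of 35116 windows of the same length in the RefSeq table, 2228 (6.34%) hold at least 1 copy and 5 (0.0142%) hold at least 4. The BCL2L11 window (chr2:111120664-111120913, plus strand) holds 1 copy of GTAAACA, the core bound by FOXO factors, at -223, as do 2.98% of windows. In the BCL2A1 window (chr15:79971197-79971446, minus strand), TGATGCAA at -63 matches TGATGNAA, the composite C/EBP-ATF site bound by ATF4 with its partners, which 3.14% of windows hold. In all, 8 of the 10 members had promoters in the table, with 14 windows, and MCL1 and BCL2L2 had none. Across these windows, BID held an E-box at -106 or -47 from 2 neighbouring start sites, and BMF held a κB motif at -20, against 6.34% and 5.21% of all windows. The BCL2A1 window was searched for the κB motif too and had no match. TGANTCA, the AP-1 motif, was searched on both strands too and had no match in a member, against 6.57% of windows. No window of a member held more than 1 kind of motif, so no matches overlapped. A match describes the letters only, and binding was not measured here.

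Library totals ran from 16143716 to 23189950 counts. Levels are given in CPM, the count of a gene relative to its library's TMM-scaled total, and 3 counts correspond to between 0.121 and 0.187 CPM. HRAS and ESR1, the parts of the fusion, summed to between 4440 and 4820 CPM in control DMSO libraries and between 8260 and 9390 CPM in senescent DMSO libraries. CDKN1A, a cell cycle inhibitor, ran from 311 to 410 CPM in all control and from 1200 to 2270 CPM in all senescent libraries. CDKN2B was higher and LMNB1 and MKI67 lower in senescent cells without overlap. CDKN2A overlapped, at 47.3 to 103 CPM in control and 97.9 to 173 CPM in senescent libraries. Summed with CDKN1A, these markers reached 2320 to 2660 CPM in senescent DMSO libraries. With IMP1088 the sum was 1410 to 1660 CPM and with DDD86481 1520 to 1690 CPM in senescent libraries. All 8 fibroblast markers were above the floor of 3 counts in the 18 libraries. The collagens, PDGFRB, DCN and LUM were nevertheless lower and VIM higher in senescent cells, with no overlap of libraries. The 4 epithelial markers summed to 17.6 to 30.6 CPM in control and 7.63 to 10.5 CPM in senescent libraries, with KRT5 at 0 counts throughout and CDH1 at or under the floor in 17 of 18 libraries. The 4 endothelial markers summed to 1.09 to 3.79 CPM in control libraries and to 11.2 to 33.9 CPM in senescent libraries, and their part in the results was not tested. Control DMSO replicate 3 stood apart, with a chi-square of 101 and 51.2 per gene against its fellow replicates, where other pairs of replicates gave 5.09 to 26.8, and calls of members that depend on this library are named below. Pathway genes were tested with all libraries only.

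**Figure D1:**
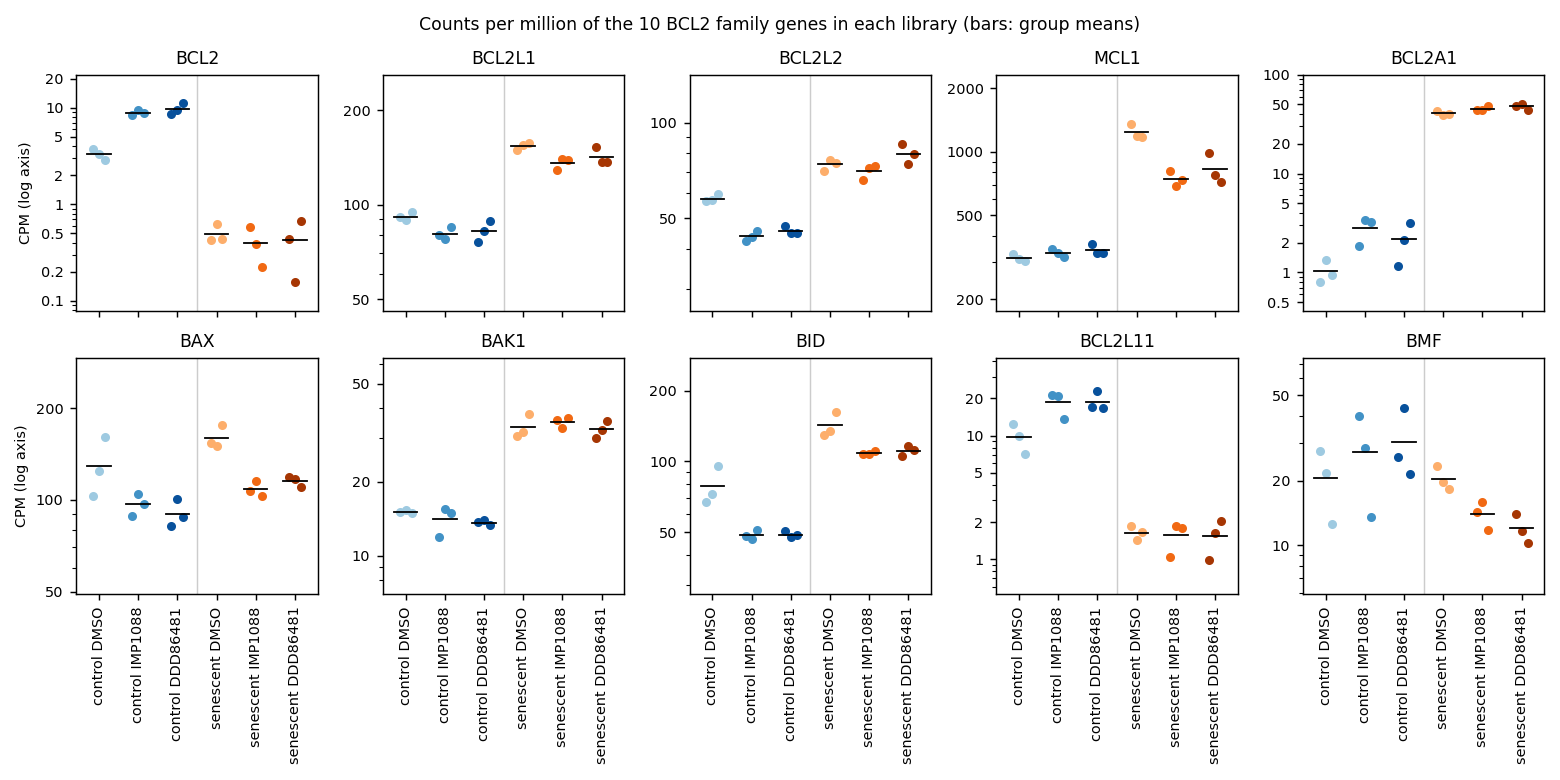
CPM (log axis) of each gene in each of the 18 libraries, with 3 points and a bar at the mean for each of the 6 groups. BCL2 and BCL2L11 sit lower in every senescent library than in any control library, BCL2A1 sits higher in all of them, and BMF spreads from 12.6 to 27.5 CPM among control DMSO libraries.

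Levels of different genes were compared per kilobase of exon, from the union of all annotated exons, which lowers the scaled level of genes with long or rarely used exons. In control DMSO cells, MCL1 (50.7 CPM per kb) and BAX (50 CPM per kb) were the most abundant members and their ranges over libraries overlapped. BCL2L1 (21.9) and BID (17.8) followed, again with overlapping ranges, then BCL2L2 (11.9), BAK1 (6.85) and BMF (3.78), each clear of the next. At the bottom were BCL2L11 (1.45) and BCL2A1 (1.03), which overlapped, and BCL2 (0.264). With 4OHT and DMSO the order became MCL1 (199 CPM per kb), BAX (61.7), BCL2A1 (41), BCL2L1 (36.7) and BID (32.2), then BCL2L2 (15.3), BAK1 (15.1), BMF (3.75), BCL2L11 (0.244) and BCL2 (0.0395). Ranges of BCL2L1 and BID overlapped there, as did those of BCL2L2 and BAK1. BCL2A1 thus stood at place 9 of 10 in control and at place 3 in senescent cells.

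The first comparison asked how the family is expressed in senescent cells relative to control cells, both with DMSO. Of the 10 members, 7 were higher and 2 lower in senescent cells. BCL2A1 and MCL1 rose most, BCL2 and BCL2L11 fell most, and BMF did not pass the test. These counts stand against a wide change, as 32.5% of all genes tested were higher and 36% lower. At least 2-fold changes were found in 5 members, BCL2, MCL1, BCL2A1, BAK1 and BCL2L11, and in 31.9% of all genes. The median log2 fold change was 0.55 over the members and -0.05 over all genes. Upper quartile scaling shifted the log2 fold changes of this comparison by a median of -0.155, so changes of that size depend on the scaling. In bulk libraries, fewer cells that express a gene and less RNA per cell cannot be told apart.

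BCL2A1 (chr15:80253234-80263538 on GRCh37, as for all gene positions), which encodes the survival protein BFL1 and is best known from blood cells as a target of NF-κB, had 0.806, 1.33 and 0.945 CPM in control libraries (19 to 33 counts). In senescent libraries it had 43.1, 39.2 and 40 CPM (630 to 728 counts). The groups were far apart, with a log2 fold change of 5.30 ± 0.24 (SE, adjusted p = 8.22e-14), or 39.3-fold. The ranges of the summed leukocyte markers overlapped between these groups. The 6 genes reached 0.199 to 0.363 CPM in control DMSO and 0.0623 to 0.679 CPM in senescent DMSO libraries, CD3E and MS4A1 had no count in any library, and TYROBP and ITGAM were at or under the floor in all 18.

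MCL1 (chr1:150533371-150552214), a short-lived survival protein that neutralises BAK1 and BIM, had 329, 311 and 305 CPM in control libraries and 1350, 1190 and 1180 CPM in senescent libraries. Per length its mean was the highest of the members in all 6 groups, although BAX exceeded it in control DMSO replicate 3. The groups did not overlap and the log2 fold change was 1.98 ± 0.11 (adjusted p = 1.61e-12), or 3.94-fold. BCL2L1 (chr20:30252255-30311792), which encodes BCL-XL, rose from 91.6, 89.1 and 94.5 CPM to 150, 155 and 157 CPM. Its log2 fold change of 0.75 ± 0.08 (adjusted p = 6.19e-08) came with a spread of under 4 CPM (SD 2.72 and 3.59) in each group. The antisense RNA ABALON covers 41.34% of the exonic bases of BCL2L1 and reached at most 17 counts in a library, against at least 1461 for BCL2L1. BCL2L2 (chr14:23767999-23780960), which encodes BCL-W, rose more modestly, from 56.5, 56.9 and 59.7 CPM to 70.6, 76.2 and 74.7 CPM (0.36 ± 0.081, adjusted p = 0.00062). The readthrough gene BCL2L2-PABPN1 shares 16.84% of its exonic bases and is listed at 0 in all libraries, so reads of this stretch cannot be assigned with certainty.

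BCL2 (chr18:60790579-60987361), the survival protein that gave the family its name, moved the other way. It had 3.75, 3.34 and 2.89 CPM in control libraries (58 to 93 counts) and 0.432, 0.623 and 0.44 CPM in senescent libraries (7 to 10 counts). The fall was 2.73 ± 0.30 on the log2 scale (adjusted p = 6.84e-08), which left 15% of the control level.

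Per length, the 5 survival genes summed to 85.7 CPM per kb in control DMSO cells (84.6 to 87.5 over libraries) and to 292 CPM per kb in senescent DMSO cells (283 to 311). MCL1 made up 59.1% of the sum in control and 68.1% in senescent cells. The share of BCL2L1 went from 25.5% to 12.6% and that of BCL2L2 from 13.9% to 5.23%, although both genes rose. BCL2A1 went from 1.21% to 14%, and BCL2 from 0.307% to 0.0136%. None of these 5 shares overlapped between the states with DMSO. They are descriptions without a test.

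**Figure D2:**
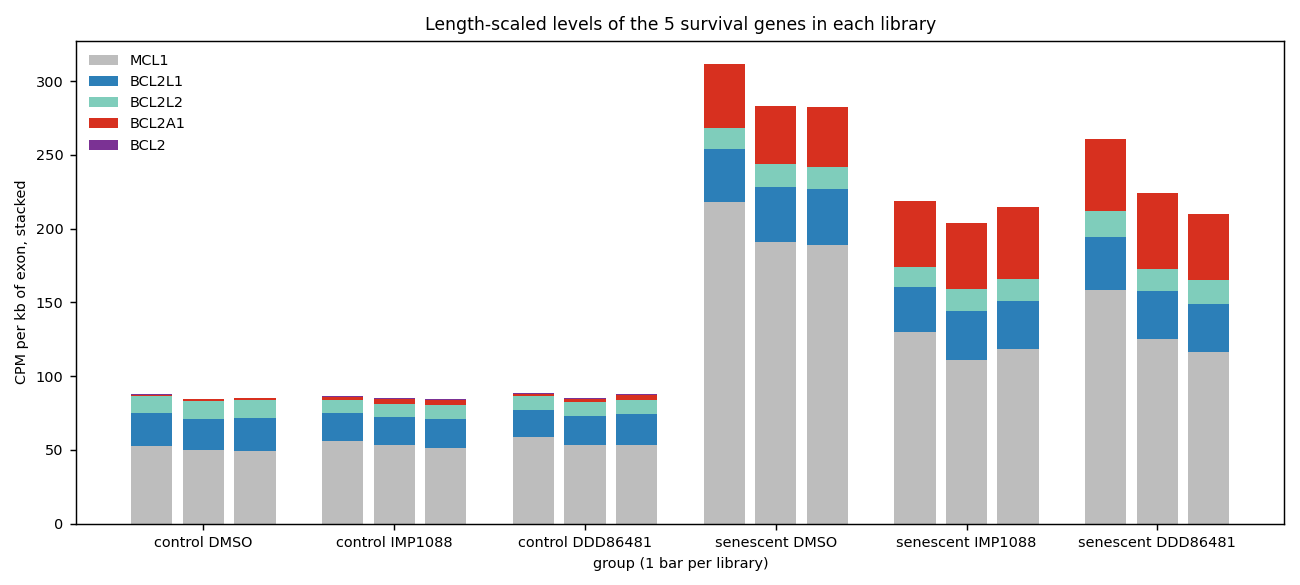
Length-scaled levels (CPM per kilobase of exon) of the 5 survival genes, stacked in 1 bar for each of the 18 libraries. Control bars reach 84.5 to 88.6, senescent DMSO bars 283 to 311, and senescent NMTi bars 204 to 261, and the BCL2A1 segment is wide only in senescent cells.

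Of the effectors, BAK1 (chr6:33540324-33548070) was uniform in control libraries at 15.1, 15.3 and 15 CPM. It rose to 30.6, 31.7 and 37.6 CPM in senescent libraries (1.14 ± 0.11, adjusted p = 1.61e-08), so that the groups lay 2.2-fold apart. BAX (chr19:49458072-49465055), a p53 target, had 103, 124 and 161 CPM in control and 154, 150 and 176 CPM in senescent libraries. Here the groups overlapped, because control DMSO replicate 3 lay above 2 of the senescent libraries. BAX passed the test narrowly (0.31 ± 0.12, adjusted p = 0.0352), and the call was lost with upper quartile scaling (0.15, adjusted p = 0.324), with a fit of these groups alone (adjusted p = 0.101) and without control DMSO replicate 1 (0.17, adjusted p = 0.203), control DMSO replicate 2 (0.25, adjusted p = 0.137) or senescent DMSO replicate 3 (0.23, adjusted p = 0.146). Without control DMSO replicate 3 the rise was 0.49 (adjusted p = 0.000271).

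The 3 BH3-only genes each went a different way. BID (chr22:18216904-18257536), which links death receptors to mitochondria once caspase-8 has cut it, had 67.3, 72.9 and 95.4 CPM in control libraries. It reached 130, 135 and 162 CPM in senescent libraries, a rise of 0.86 ± 0.11 (adjusted p = 6.85e-07). BCL2L11 (chr2:111876955-111926021) encodes BIM, a BH3-only protein that binds every survival protein of the family. Its values were 12.3, 9.9 and 7.07 CPM in control libraries and 1.85, 1.43 and 1.65 CPM in senescent libraries. It fell by 2.57 ± 0.27 on the log2 scale (adjusted p = 5.41e-08), to 16.8% of the control level. An antisense gene, MIR4435-2HG, shares 10.78% of the exonic bases of BCL2L11 and was more abundant, at 89.3 ± 22.3 CPM (SD, n = 3) in control and 102 ± 4.07 CPM in senescent DMSO cells, with no call between them (0.19 ± 0.15, adjusted p = 0.265). BMF (chr15:40380091-40401093), a BH3-only gene linked to loss of anchorage, had 27.5, 21.6 and 12.6 CPM in control and 23.5, 19.6 and 18.2 CPM in senescent libraries. Its groups overlapped fully (-0.02 ± 0.31, 95% interval -0.66 to 0.63, adjusted p = 0.965), and the sign of this difference turned under several alternatives. BMF-AS1 lies antisense to 8.46% of its exonic bases and was not analysed here.

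**Figure D3:**
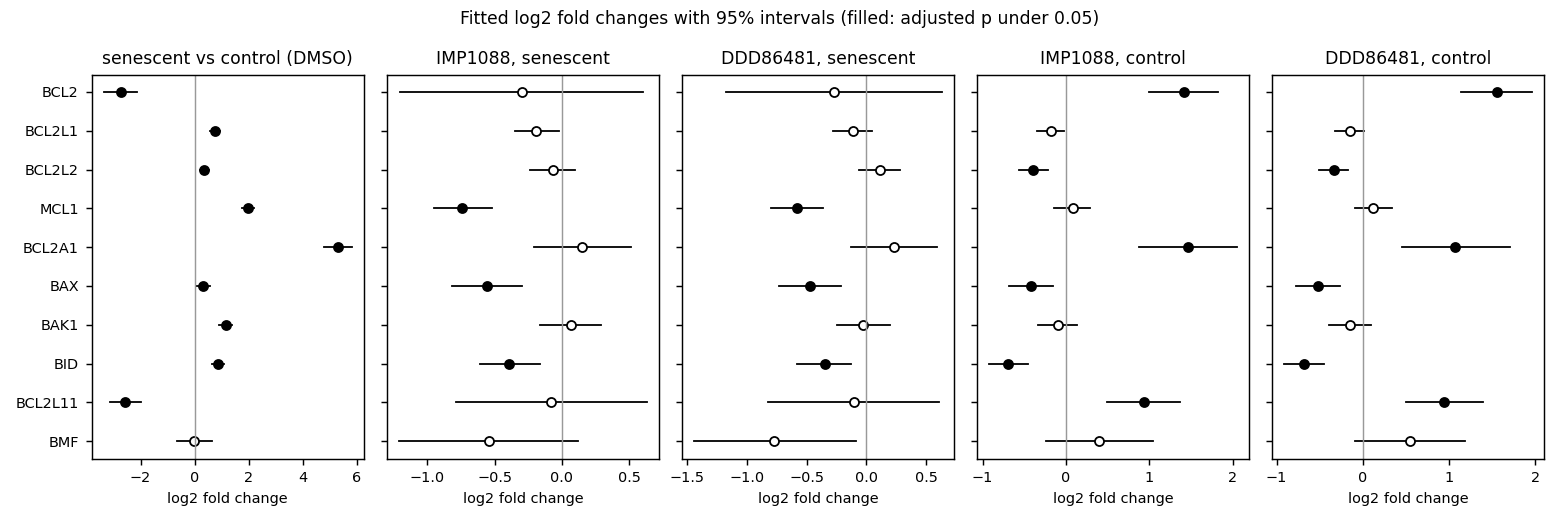
Fitted log2 fold change (point) and 95% interval (line) of each gene in 5 comparisons, on a separate x axis for each, with filled points for an adjusted p under 0.05. Senescence spans -2.73 (BCL2) to 5.30 (BCL2A1), whereas the NMTi effects in senescent cells lie between -0.77 (BMF) and 0.23 (BCL2A1).

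The next question was what NMTi did to the family in senescent cells. The study reports that NMTi selectively killed such cells, by apoptosis. Lower expression per cell and loss of a subset of cells cannot be told apart in these bulk libraries. With IMP1088, 3 members fell (MCL1, BAX and BID) and 0 rose, against 23.9% of all genes lower and 20.6% higher. With DDD86481, MCL1, BAX and BID were lower and 0 members higher, against 23.1% of all genes lower and 20.1% higher. No member changed 2-fold with either inhibitor, while 11.2% and 11.1% of all genes did. In fits of the compared groups alone the counts were 6 and 5 in place of 3 and 3, with BCL2A1 called higher with each inhibitor. The median log2 fold change of the members was -0.24 with IMP1088 and -0.19 with DDD86481, against -0.04 over all genes in both comparisons. The comparisons share the 3 senescent DMSO libraries and the doses differ, so their values are given side by side and no difference between the inhibitors was tested.

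MCL1 showed the clearest fall. From 1350, 1190 and 1180 CPM with DMSO it went to 808, 692 and 735 CPM with IMP1088 and to 985, 777 and 724 CPM with DDD86481. Neither NMTi group overlapped the DMSO libraries. IMP1088 changed it by -0.74 ± 0.10 on the log2 scale (adjusted p = 1.02e-05) and left 60.1% of the DMSO level. DDD86481 changed it by -0.58 ± 0.10 (adjusted p = 0.000142) and left 66.8%. The NMTi libraries still lay above every control library, where MCL1 reached at most 366 CPM. The other survival genes missed the threshold in the fit over all groups. BCL2A1 had 44.1, 44.1 and 47.9 CPM with IMP1088 (0.15 ± 0.17, 95% interval -0.21 to 0.51, adjusted p = 0.496) and 48.3, 51 and 44.4 CPM with DDD86481 (0.23 ± 0.17, -0.13 to 0.59, adjusted p = 0.294). These libraries all lay above the 43.1 CPM of the highest DMSO library, and in fits of the compared groups alone the rises passed (0.19, adjusted p = 0.0424, and 0.27, adjusted p = 0.0487). BCL2L1, with 129, 140 and 139 CPM, lay below the DMSO libraries with IMP1088 and just missed the threshold (-0.19 ± 0.08, adjusted p = 0.0655), which it passed with DESeq2 (-0.20, adjusted p = 0.0224). It also passed with RLE scaling (adjusted p = 0.0491) and in a fit of the compared groups alone (adjusted p = 0.0408). With DDD86481 it had 153, 137 and 137 CPM (-0.11 ± 0.08, adjusted p = 0.26). BCL2L2 ran from 65.8 to 73 CPM with IMP1088 and from 73.9 to 85.4 CPM with DDD86481, both overlapping the 70.6 to 76.2 CPM with DMSO. BCL2 stayed at 3 to 11 counts a library in both NMTi groups, too few to show a difference of less than about 2-fold (95% intervals -1.20 to 0.60 and -1.17 to 0.63).

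With MCL1 lower, the make-up of the survival genes differed from that with DMSO. The length-scaled sum was 212 CPM per kb with IMP1088 (204 to 218) and 232 CPM per kb with DDD86481 (210 to 261), below the 283 to 311 with DMSO. MCL1 made up 56.4% and 57.3% of these sums, and its highest share in an NMTi library, 60.7%, was below its lowest with DMSO, 67%. BCL2A1 made up 21.5% and 20.9%, and BCL2L1 15.2% and 14.7%.

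BAX and BID were the other members that fell. BAX had 107, 115 and 103 CPM with IMP1088 and 119, 117 and 110 CPM with DDD86481, against at least 150 CPM with DMSO. IMP1088 gave a log2 fold change of -0.56 ± 0.13 (adjusted p = 0.00109) and DDD86481 of -0.47 ± 0.13 (adjusted p = 0.00462). BID had 108, 108 and 111 CPM with IMP1088 and 106, 116 and 112 CPM with DDD86481, against 130, 135 and 162 CPM with DMSO. Although no library overlapped, the changes of -0.39 ± 0.11 (adjusted p = 0.00651) and -0.35 ± 0.11 (adjusted p = 0.0119) lost their call without senescent DMSO replicate 3, the highest library (-0.28, adjusted p = 0.0541, and -0.25, adjusted p = 0.0877). BAK1, the other effector, had 33 to 36.2 CPM with IMP1088 and 30.2 to 35.4 CPM with DDD86481, within or next to the 30.6 to 37.6 CPM of DMSO libraries. BCL2L11 remained between 0.983 and 2.02 CPM in all NMTi libraries, with 95% intervals of -0.79 to 0.63 and -0.82 to 0.61. BMF had 14.3, 15.9 and 11.8 CPM with IMP1088 and 14, 11.7 and 10.2 CPM with DDD86481, all below the 18.2 CPM of the lowest DMSO library. It nevertheless missed the threshold in the fit over all groups (-0.54 ± 0.32, adjusted p = 0.178, and -0.77 ± 0.32, adjusted p = 0.0611), in which control groups of BMF had SDs of 7.53 to 13.3 CPM and senescent groups SDs of 1.88 to 2.76 CPM. In fits of the compared groups alone its fall passed (-0.51, adjusted p = 0.00145, and -0.73, adjusted p = 0.000748). With a replicate block in the fit over all groups, the DDD86481 fall passed (-0.79, adjusted p = 0.0108) and the IMP1088 fall did not (-0.56, adjusted p = 0.057). Without the filter on low counts, both BMF falls passed in the fit over all groups (IMP1088 -0.55, adjusted p = 0.0264, and DDD86481 -0.78, adjusted p = 0.00134).

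In control cells 6 members passed the test with each inhibitor. With IMP1088, 3 members rose (BCL2, BCL2A1 and BCL2L11) and 3 fell (BCL2L2, BAX and BID), against 16.3% of all genes higher and 17.4% lower. With DDD86481, BCL2, BCL2A1 and BCL2L11 rose and BCL2L2, BAX and BID fell, against 17.8% of all genes higher and 18.7% lower. Changes of at least 2-fold were found in BCL2 and BCL2A1 with each inhibitor, and in 6.34% and 6.49% of all genes. The medians over members were -0.01 with each inhibitor, and those over all genes 0. These comparisons share the control DMSO libraries.

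BCL2 went from 3.75, 3.34 and 2.89 CPM with DMSO to 8.38, 9.44 and 8.79 CPM with IMP1088 and 8.61, 9.52 and 11.2 CPM with DDD86481. The groups were well separated, with rises of 1.41 ± 0.20 (adjusted p = 1.67e-05) and 1.55 ± 0.20 (adjusted p = 6.26e-06), or 2.66-fold and 2.93-fold. Per length it stayed the lowest of the 10 members. BCL2A1 was low and variable, at 1.86, 3.38 and 3.25 CPM with IMP1088 (1.46 ± 0.28, adjusted p = 0.000556) and 1.15, 2.13 and 3.18 CPM with DDD86481 (1.07 ± 0.30, adjusted p = 0.0086). The DDD86481 group overlapped the 0.806 to 1.33 CPM with DMSO, and its call was lost without control DDD86481 replicate 3 (0.66, adjusted p = 0.112) and in a fit of the compared groups alone (adjusted p = 0.0747). Even the highest of these values, 3.38 CPM, was far below the 39.2 CPM of the lowest senescent DMSO library. BCL2L2 fell from at least 56.5 CPM to 42.5, 43.6 and 45.6 CPM with IMP1088 (-0.39 ± 0.081, adjusted p = 0.000929) and to 47.2, 44.9 and 44.9 CPM with DDD86481 (-0.34 ± 0.081, adjusted p = 0.00309). MCL1 ran from 317 to 348 and from 331 to 366 CPM, with 95% intervals of -0.14 to 0.29 and -0.09 to 0.34. For BCL2L1 the values were 79.8, 78 and 84.7 CPM and 76.2, 82.3 and 88.7 CPM, below each DMSO library, yet the changes of -0.18 ± 0.08 (adjusted p = 0.0853) and -0.15 ± 0.08 (adjusted p = 0.139) missed the threshold. IMP1088 passed with DESeq2 (adjusted p = 0.0473), and both inhibitors passed with upper quartile scaling (adjusted p = 0.0303 and 0.0414). The length-scaled sum of the survival genes was 85.3 and 87.2 CPM per kb, next to 85.7 with DMSO.

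Among the death genes, BCL2L11 reached 21.5, 21 and 13.6 CPM with IMP1088 and 17, 22.8 and 16.8 CPM with DDD86481, all above the 12.3 CPM of the highest DMSO library. It rose by 0.93 ± 0.21 (adjusted p = 0.00206) and 0.94 ± 0.21 (adjusted p = 0.00185). Its antisense neighbour MIR4435-2HG went the other way, with log2 values of -0.83 ± 0.15 (adjusted p = 0.000321) and -0.93 ± 0.15 (adjusted p = 0.000109). BID fell to 48.1, 46.7 and 51.1 CPM with IMP1088 (-0.69 ± 0.11, adjusted p = 7.44e-05) and to 50.6, 47.6 and 48.7 CPM with DDD86481 (-0.68 ± 0.11, adjusted p = 8.74e-05), clear of the 67.3 to 95.4 CPM with DMSO. BAX had 88.3, 105 and 96.8 CPM and 81.9, 101 and 87.9 CPM, of which the IMP1088 values overlapped the 103 CPM of the lowest DMSO library. Its changes were -0.42 ± 0.13 (adjusted p = 0.0149) and -0.52 ± 0.13 (adjusted p = 0.00328). The IMP1088 call was lost without control DMSO replicate 3 (-0.23, adjusted p = 0.108) or control IMP1088 replicate 1 (-0.34, adjusted p = 0.0795), the DDD86481 value was -0.33 (adjusted p = 0.0254) without control DMSO replicate 3, and in fits of the compared groups alone both calls were lost (adjusted p = 0.106 and 0.055). BAK1 kept to 11.9 to 15.5 and 13.3 to 14 CPM (-0.10 ± 0.11 and -0.15 ± 0.11, adjusted p = 0.519 and 0.317). BMF was scattered, with 39.9, 28.5 and 13.5 CPM and 25.8, 43.5 and 21.5 CPM, and was not called (0.40 ± 0.31, adjusted p = 0.331, and 0.55 ± 0.31, adjusted p = 0.169). With IMP1088 it was higher than the same-numbered DMSO library in 3 of 3 pairs, and with the replicate block this change was still not called (0.38, adjusted p = 0.195). With DDD86481, replicate 1 lay below its same-numbered DMSO library and the others above. The DDD86481 change passed with the block (0.58, adjusted p = 0.0452) and without the filter (0.55, adjusted p = 0.0246).

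**Figure D4:**
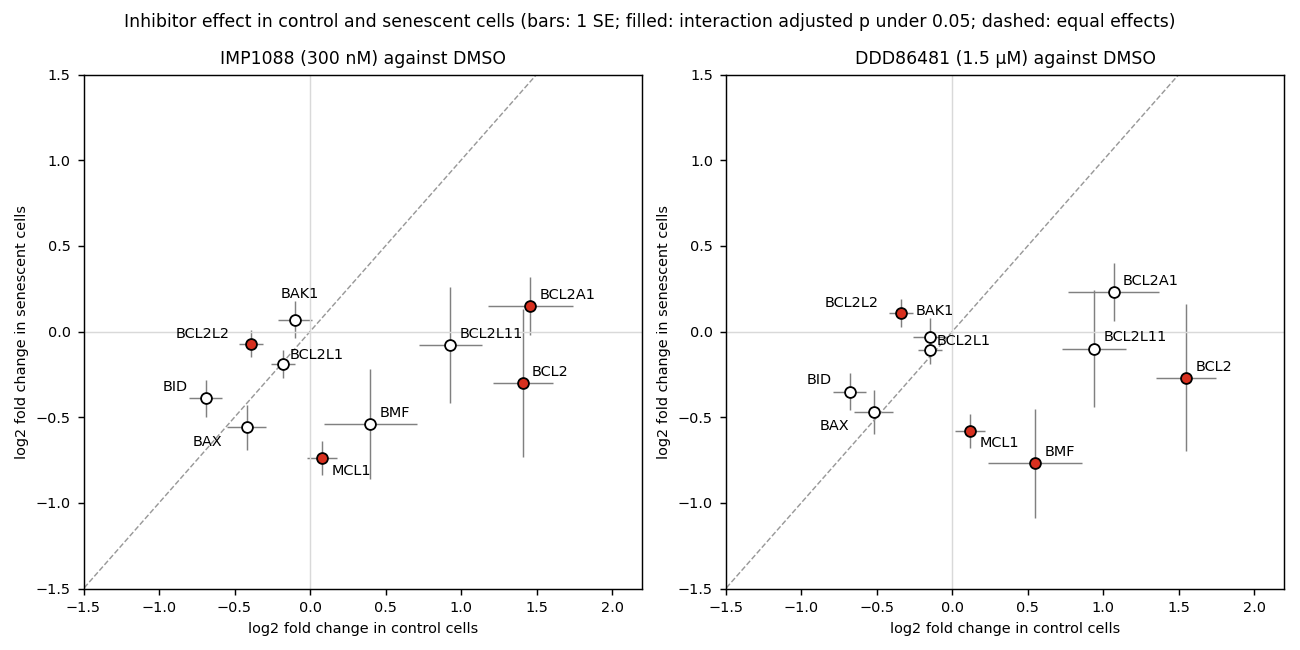
Log2 fold change of each gene with IMP1088 (left) or DDD86481 (right) against DMSO in control cells (x axis) and senescent cells (y axis), with bars of 1 SE, a dashed line of equal effects and filled points where the interaction had an adjusted p under 0.05. BCL2 lies far to the right of the line at 1.41 and 1.55 in control cells, MCL1 lies below it at -0.74 and -0.58 in senescent cells, and BAX lies near it in both panels.

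To ask whether NMTi acted differently in the 2 states, the effect in control cells was subtracted from that in senescent cells. For IMP1088 this interaction passed the test in 4 members, against 26.2% of all genes. BCL2 (-1.71 ± 0.48), MCL1 (-0.81 ± 0.15) and BCL2A1 (-1.31 ± 0.33) had lower effects in senescent cells and BCL2L2 (0.32 ± 0.11) a higher one. For DDD86481 it also passed in 4 members, BCL2 (-1.82 ± 0.48), MCL1 (-0.71 ± 0.15), BMF (-1.32 ± 0.44) and BCL2L2 (0.45 ± 0.11), against 30.3% of all genes. The DDD86481 interaction of BCL2A1 was -0.84 ± 0.35 (adjusted p = 0.0707) and passed with DESeq2 (adjusted p = 0.0244) and without the filter (adjusted p = 0.0235). That of BMF with IMP1088 was -0.94 ± 0.44 (adjusted p = 0.119) and passed without the filter (-0.95, adjusted p = 0.00803). Interactions of at least 2-fold were found in 2 members for each inhibitor (BCL2 with BCL2A1, and BCL2 with BMF), and in 9.09% and 9.85% of all genes. Without senescent DMSO replicate 2 the IMP1088 interaction of BCL2 missed the threshold (-1.53, adjusted p = 0.0577), and those of BCL2L2 with IMP1088 and BMF with DDD86481 passed in only 5 of 12 fits that left out a library. BAX, which fell in both states, had interactions of -0.15 ± 0.18 (95% interval -0.52 to 0.22) and 0.05 ± 0.18 (-0.32 to 0.42), and those of BCL2L1 were 0.00 ± 0.11 (-0.24 to 0.23) and 0.04 ± 0.11 (-0.20 to 0.28). BCL2L11 was called in control and not in senescent cells, but its interactions of -1.01 ± 0.40 (adjusted p = 0.068) and -1.05 ± 0.40 (adjusted p = 0.0555) missed the threshold, which they passed with DESeq2 (adjusted p = 0.037 and 0.0286). The members' interactions had medians of -0.48 and -0.33, against 0 and -0.01 over all genes.

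Around the family, 55 genes of 6 lists were examined, of which 50 passed the filter. The 5 that did not, BIK, HRK, BCL2L10, BCL2L14 and BCL2L15, are further BCL2 family genes and reached at most 9 counts in a library. In senescent DMSO cells 25 of the 50 were higher and 11 lower, against 32.5% and 36% of all genes. Among them PMAIP1, which encodes the BH3-only protein NOXA that targets MCL1, went from 56 ± 15.1 CPM (SD, n = 3) to 143 ± 18.6 CPM (1.35 ± 0.16, adjusted p = 2.64e-07). BBC3, which encodes PUMA, had 17.8 ± 2.76 and 17.1 ± 3.1 CPM and was not called (adjusted p = 0.769). Of 10 genes of death receptors and their adaptors, 7 were higher and 2 lower, against the same shares of all genes. TNFRSF10D, a decoy receptor for the death ligand TRAIL, showed the largest change of the 50 genes, from 136 ± 6.62 to 1650 ± 102 CPM (3.59 ± 0.11, adjusted p = 2.55e-16). TNFRSF10A, a TRAIL receptor with a death domain, went from 3.49 ± 0.574 to 21.3 ± 2.43 CPM (2.60 ± 0.15, adjusted p = 2.46e-12). BIRC3, an inhibitor of apoptosis induced by NF-κB, went from 6.22 ± 1.12 to 38.6 ± 8.83 CPM (2.64 ± 0.21, adjusted p = 8.04e-10).

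In senescent cells IMP1088 raised 8 and lowered 14 of the 50 genes, against 20.6% and 23.9% of all genes. DDD86481 raised 7 and lowered 14, against 20.1% and 23.1%, so these counts lay near the shares of all genes. Of the 10 genes of death receptors and their adaptors, 7 fell and 0 rose with each inhibitor, where 23.9% and 23.1% of all genes fell. Their medians were -0.58 and -0.40, against -0.04 over all genes. The 7 were FAS, TNFRSF10B, TNFRSF10C, TNFRSF10D, TNFRSF1A, TNFSF10 and CFLAR. They thus include the decoy receptors TNFRSF10C and TNFRSF10D, a ligand, and CFLAR, which encodes an inhibitor of caspase-8. The death-domain receptor TNFRSF10A was not called. PMAIP1 fell to 63 ± 2.76 CPM with IMP1088 (-1.18 ± 0.16, adjusted p = 5.86e-06) and to 75.4 ± 12.7 CPM with DDD86481 (-0.92 ± 0.16, adjusted p = 9.45e-05), so that MCL1 and its BH3-only antagonist were lower together. BBC3 also fell (-0.63 ± 0.18, adjusted p = 0.00681, and -0.46 ± 0.18, adjusted p = 0.0405). TNFSF10, which encodes TRAIL, passed the test with 2 to 10 counts a library with DMSO and 0 to 2 and 0 to 1 counts with NMTi, too few for a fold change. DDIT3 and ATF4, transcription factors of the integrated stress response, rose. DDIT3 went from 23.1 ± 2.57 CPM to 77.9 ± 14.3 CPM with IMP1088 (1.75 ± 0.20, adjusted p = 8.1e-07) and 57.3 ± 4.02 CPM with DDD86481 (1.31 ± 0.20, adjusted p = 2.56e-05). ATF4 went from 178 ± 31.3 CPM to 454 ± 20.1 and 439 ± 20.4 CPM (1.35 ± 0.14, adjusted p = 1.7e-07, and 1.30 ± 0.14, adjusted p = 3.04e-07).

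**Figure D5:**
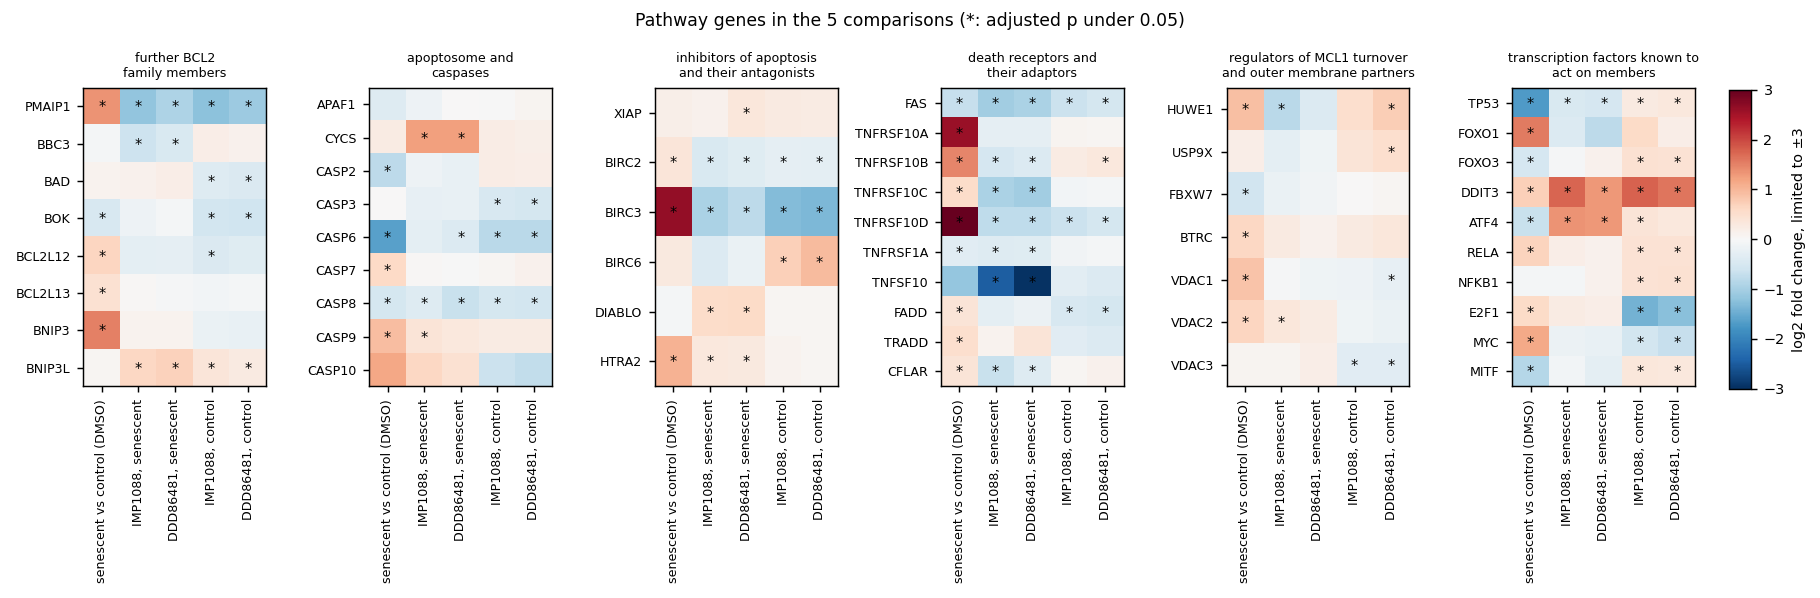
Log2 fold changes (colour, limited to 3 in either direction) of the 50 pathway genes in 6 lists over 5 comparisons, with a star for an adjusted p under 0.05. The panel of death receptors and their adaptors is mostly red for senescence, at up to 3.59 for TNFRSF10D. It is mostly blue for NMTi in senescent cells, except for TRADD at 0.11 and 0.39, and DDIT3 is red in all 5 columns.

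In control cells IMP1088 raised 9 and lowered 15 of the 50 genes, against 16.3% and 17.4% of all genes. DDD86481 raised 11 and lowered 15, against 17.8% and 18.7%. Of the 10 transcription factors known to act on members, 7 rose and 2 fell with IMP1088 and 6 rose and 2 fell with DDD86481, where 33.7% and 36.6% of all genes were called in either direction and the medians were 0.40 and 0.31 against 0 over all genes. DDIT3 rose from 14.1 ± 3.98 to 48.3 ± 6.38 CPM (1.78 ± 0.20, adjusted p = 1.96e-06) and 42.9 ± 13.4 CPM (1.61 ± 0.20, adjusted p = 6.59e-06). E2F1, which drives genes of cell division, fell from 10.9 ± 2.37 to 4.05 ± 0.731 CPM (-1.42 ± 0.18, adjusted p = 5.9e-06) and 4.52 ± 0.242 CPM (-1.26 ± 0.18, adjusted p = 1.96e-05). PMAIP1 fell from 56 ± 15.1 to 23.8 ± 1.55 CPM (-1.23 ± 0.16, adjusted p = 1.11e-05) and 26.2 ± 4.64 CPM (-1.09 ± 0.16, adjusted p = 3.95e-05), whereas BBC3 was not called (0.20 ± 0.17 and 0.12 ± 0.17, adjusted p = 0.382 and 0.611). BIRC3 fell too, to 2.52 ± 0.437 CPM (-1.30 ± 0.25, adjusted p = 0.000449) and 2.42 ± 0.727 CPM (-1.35 ± 0.25, adjusted p = 0.000352). The interaction was called in 15 of the 50 genes for IMP1088 and in 19 for DDD86481, near the 26.2% and 30.3% of all genes. The largest called were those of E2F1 (1.67 ± 0.24 and 1.46 ± 0.24, adjusted p = 5.36e-05 and 0.000196), HUWE1, a ubiquitin ligase of MCL1 (-1.30 ± 0.38 and -1.14 ± 0.38, adjusted p = 0.017 and 0.0303), and BIRC6, a giant inhibitor of apoptosis (-1.14 ± 0.37 and -1.14 ± 0.36, adjusted p = 0.0268 and 0.0233). HUWE1 and BIRC6 ranged widely among control DMSO libraries, from 60.5 to 200 CPM and from 34.9 to 102 CPM. PMAIP1, called lower in both states, had interactions of 0.05 ± 0.23 (95% interval -0.42 to 0.52) and 0.17 ± 0.23 (-0.30 to 0.64), and BBC3 had interactions of -0.83 ± 0.25 (adjusted p = 0.0176) and -0.58 ± 0.25 (adjusted p = 0.0767).

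Genes whose log2 CPM followed a member most closely were sought over the 18 libraries, which fall into 2 states that dominate any such likeness. For BCL2A1 these were CTSS, MME and LIF, with Pearson's r of 0.9921, 0.9915 and 0.9908. For BCL2L1 they were BPGM, MEGF10 and DEF8 (0.9915, 0.9913 and 0.9904). For BCL2L11 they were PLXDC2, ITPKB and BACH2 (0.9951, 0.9926 and 0.9916). The points share library, depth and state, and these values are descriptions.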

How the data were processed

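Poly(A) RNA of 18 bulk libraries was sequenced, and the authors' raw counts for all libraries were deposited as 1 table of gene symbols. The submitters' processing notes name hg38, DRAGEN, STAR 2.7.8a and DESeq2 1.32.0, whereas the study's methods name hg19, TopHat run in first-strand mode and an Ensembl annotation. These accounts conflict, and which of them made the table could not be settled. The strand setting of the counting step itself is not given in the sources used here, so counts of overlapping genes are uncertain. Of the symbols, 95.5% matched RefSeq GRCh38.p14 and 88.6% matched GENCODE v44lift37, which gave gene positions, lengths and overlaps on GRCh37.

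Groups came from the labels. Library totals ran from 16143716 to 23189950 counts, and floors of 3 counts cover counting error only. The filter filterByExpr in edgeR 4.0.16 left 14341 genes, which held 99.962% of the counts. TMM scaling was followed by the quasi-likelihood test of edgeR in 1 fit over 6 groups, with Benjamini-Hochberg adjustment over all genes tested and a threshold of 0.05. Standard errors came from the F statistic and 95% intervals from the fit's t distribution. The prior count of log2 CPM was 2. Only the comparison of IMP1088 with DMSO in senescent cells was checked on simulated counts, in which the states did not otherwise differ. Alternatives were DESeq2 1.42.0, RLE and upper quartile scaling, no filter on low counts, the compared groups alone, a 2-fold threshold, a replicate block and leaving out each library.

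No pair of replicates was a duplicate (chi-square per gene 5.09 or more). After subtraction of group means, same-numbered control DMSO and control IMP1088 libraries correlated at 0.394, 0.123 and 0.231, so these libraries count as paired by number, on the correlations alone. In the other comparisons at least 1 pair was under 0.1, which does not show that they were unpaired. Between senescent and control DMSO, 6 of 6 libraries correlated best with their own number, against 5 of 6 between control IMP1088 and control DMSO. The main fit used no replicate block, and the calls that a block changed are given below.

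The members, the lists, the motifs and the tests were chosen with earlier results of these data known. Named were all members, PMAIP1 and BBC3, in each comparison the 3 other pathway genes with the largest called change, and the 3 genes most like BCL2A1, BCL2L1 and BCL2L11. No protein sequences were used here.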

Additional observations from a re-analysis of the deposited data

Results flagged for a closer look

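Effects of NMTi that differed between senescent and control cells were called in 5 members over both inhibitors. Each inhibitor had 4 such members, against 26.2% of all genes for IMP1088 and 30.3% for DDD86481. Values are the log2 effect in senescent cells after subtraction of the control effect. For IMP1088 the differences were -1.71 ± 0.48 for BCL2 (adjusted p = 0.013), 0.32 ± 0.11 for BCL2L2 (adjusted p = 0.0426), -0.81 ± 0.15 for MCL1 (adjusted p = 0.00055) and -1.31 ± 0.33 for BCL2A1 (adjusted p = 0.00746). For DDD86481 they were -1.82 ± 0.48 for BCL2 (adjusted p = 0.00833), 0.45 ± 0.11 for BCL2L2 (adjusted p = 0.00672), -0.71 ± 0.15 for MCL1 (adjusted p = 0.00162) and -1.32 ± 0.44 for BMF (adjusted p = 0.031).

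The 2 MCL1 differences and that of BCL2A1 for IMP1088 were called in all 12 fits that left out a library. For BCL2 the DDD86481 difference was called in all 12 and the IMP1088 difference in 11, and it was missed without senescent DMSO replicate 2 (-1.53, adjusted p = 0.0577). BCL2 had 3 to 11 counts in each senescent library, so its effect there is known only within the intervals given. The BCL2L2 difference for IMP1088 was called in 5 of 12 such fits. It was missed without control DMSO replicate 3, control IMP1088 replicate 1, any senescent DMSO replicate, or senescent IMP1088 replicates 2 or 3, with values of 0.29 to 0.35 and adjusted p from 0.0563 to 0.104, and also without the filter (adjusted p = 0.162). That for DDD86481 was called in all 12. The BMF difference was called in 5 of 12. It was missed without control DMSO replicates 2 or 3, control DDD86481 replicate 2, senescent DMSO replicates 1 or 2, or senescent DDD86481 replicates 2 or 3, with adjusted p from 0.05 to 0.126 and the value nearest 0, -0.92, without control DDD86481 replicate 2. BMF ranged from 12.6 to 27.5 CPM among control DMSO libraries.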

How the results depend on the processing

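Counts of members called stayed within 1.5 times under DESeq2, RLE scaling, upper quartile scaling, no filter and the replicate block, in all 7 comparisons. With the compared groups alone, the counts in senescent cells were 6 for IMP1088 and 5 for DDD86481 in place of 3. A 2-fold threshold left 5 members for senescence, 0 and 0 for IMP1088 and DDD86481 in senescent cells, 2 and 2 in control cells, and 2 and 2 for the interactions. Leaving out 1 library gave 2 to 7 members for the interaction of IMP1088, the extremes being without senescent DMSO replicate 2 and without control DMSO replicate 1. Signs turned only for values that were not called. BMF between senescent and control cells was 0.0181 with DESeq2, 0.0128 with RLE scaling, 0.0134 without the filter, 0.0449 with the replicate block and 0.00613 with the compared groups alone, and -0.268 to 0.248 when a library was left out. BCL2L1 had an interaction with IMP1088 of 0.0504 with upper quartile scaling, 0.0321 with the compared groups alone and -0.0244 to 0.0594 when a library was left out, and with DDD86481 of -0.0151 to 0.133. BAK1 with DDD86481 in senescent cells was 0.00767 with the compared groups alone and -0.0879 to 0.0681 when a library was left out, and with IMP1088 in control cells -0.171 to 0.0134. Other ranges were -0.14 to 0.184 for the BAX interaction with DDD86481, -0.742 to 0.148 for BCL2 with DDD86481 in senescent cells, and -0.331 to 0.139 and -0.216 to 0.146 for BCL2L11 with DDD86481 and IMP1088 in senescent cells. The cause was not tested.

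The replicate block kept all 35 calls. In the paired comparison of IMP1088 in control cells it changed no call. Elsewhere it added BMF with DDD86481 in control cells (0.58, adjusted p = 0.0452) and senescent cells (-0.79, adjusted p = 0.0108), BMF in the IMP1088 interaction (-0.93, adjusted p = 0.0371) and BCL2L11 in the DDD86481 interaction (-1.06, adjusted p = 0.0467). Between 3 and 6 of 6 libraries of a comparison correlated best with their own number. Depth limits BCL2 and BCL2L11 in senescent cells and BCL2A1 in control cells.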

Other observations

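3 proteins that leave the mitochondrion through BAX and BAK1 pores were looked at after their values were seen. CYCS, which encodes cytochrome c, had 113 ± 2.28 CPM (SD, n = 3) in senescent DMSO cells and 264 ± 4.84 and 264 ± 23.3 CPM with IMP1088 and DDD86481, a rise of 1.22 ± 0.14 in each case (adjusted p = 7.96e-07 and 8.44e-07). DIABLO, an antagonist of inhibitors of apoptosis, went from 59.6 ± 5.5 CPM to 86.5 ± 4.19 and 88.6 ± 4.15 CPM (0.54 ± 0.11 and 0.57 ± 0.11, adjusted p = 0.000392 and 0.000225). HTRA2, a protease with the same action, went from 54.3 ± 6.66 CPM to 67.8 ± 1.84 and 67 ± 6.61 CPM and passed narrowly (adjusted p = 0.037 and 0.049). In control cells CYCS had 95 ± 27.2 CPM with DMSO and 111 ± 11.4 and 108 ± 11.8 CPM with NMTi, and none of the 3 was called there, where adjusted p ranged from 0.209 to 0.767. The interaction was called for CYCS (0.99 ± 0.20 and 1.04 ± 0.20, adjusted p = 0.00113 and 0.000751) and DIABLO (0.48 ± 0.15 and 0.53 ± 0.15, adjusted p = 0.0255 and 0.0137), but not for HTRA2 (adjusted p = 0.379 and 0.301).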
